A study of Mus musculus with 45 samples.

Results

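The genes of mitochondrial and peroxisomal fatty acid oxidation were followed in isolated mouse adipocytes over diet, time and genotype. The list held 34 genes, chosen by name as the enzymes, carriers and regulators of the pathway, with earlier results of these data known. A gene was taken as measured where a probe set of the array carried its symbol and no other. By that rule 33 of the 34 genes were measured, on 60 of the 45037 probe sets, out of 18193 genes on the array with such a probe set. Where a gene had several probe sets, the one brightest on average over the 45 arrays stands for it. Cpt1b, the muscle form of the carnitine palmitoyltransferase at the outer mitochondrial membrane, was matched only by a probe set with several symbols and is not described.

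Fatty acids are activated to acyl-CoA, passed through the carnitine shuttle into mitochondria and shortened there in a repeated cycle of dehydrogenation, hydration, a further dehydrogenation and thiolysis. The electrons of the first step go to the respiratory chain through the electron transfer flavoprotein, while peroxisomes shorten very long and branched chains first and pass their electrons to oxygen. White adipocytes mainly store and release fatty acids and oxidize few of them, brown adipocytes burn them for heat, and the peroxisome proliferator-activated receptors switch on many of these genes when fatty acids are plentiful.

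All 45 mice were female, on a C57BL/6 background, lacked ApoE and were sampled in the random-fed state, with 1 array per mouse. The 26 D mice were IR+/- IRS1+/- ApoE-/-, carrying 1 functional copy each of the insulin receptor and insulin receptor substrate 1 genes, and the 19 E mice were ApoE-/- only. D mice ate chow (DC8, n = 7, and DC16, n = 5) or a Western, high-fat diet (DW8, n = 5, and DW16, n = 9) for 8 or 16 weeks from 8 weeks of age, and E mice ate the Western diet for 8 weeks (EW8, n = 6) or 16 weeks (EW16, n = 8) or chow for 16 weeks (EC16, n = 5). Adipocytes came from pooled parametrial and periovarian fat. The deletions were present in every tissue of the animal, no group carried ApoE and no E mice on chow were sampled at 8 weeks, so diet in E mice is compared at 16 weeks alone. In RNA of isolated cells, fewer cells of a type and less RNA per cell cannot be told apart.

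Levels are log2 signals, so a difference of 1 is a 2-fold change, and a level is compared between groups on the same probe set, never between genes. A member was called changed in a comparison where limma gave an adjusted p under 0.01 over all probe sets. The 8 measured of 10 adipocyte markers were above the array median in every group, with a list mean of 12.39 in DW16 and 12.49 in EW16 and 12.90 to 13.14 in the other 5 groups. The 10 arrays with the lowest 95th percentile of signal, those of DW16 mice 1 to 7 and EW16 mice 1 to 3, are called narrow-range. That percentile was 10.14 to 10.85 on them, against 10.95 to 11.14 on the 35 others. The cut is by rank and the set is graded: DW16 mice 1, 5 and 7 and EW16 mouse 1, at 10.79 to 10.85, lay close to the others, and DW16 mouse 6 was next at 10.50. All 10 narrow-range arrays lie in the 2 groups fed the Western diet for 16 weeks, so the range of an array and the diet cannot be fully told apart there. The members are exposed to this, because 19 of the 33 were in the top 10% of genes by signal, and the median difference over the 4504 brightest probe sets between DW16 and DC16 was -0.44 as deposited and -0.04 after a further quantile normalization.

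The plot of group means covers all 33 members. The carnitine shuttle was represented by Cpt1a, the regulated outer membrane transferase of liver and adipose tissue, Cpt2, its inner membrane partner, Slc25a20, the carnitine-acylcarnitine translocase, Crat, which forms short acylcarnitines, and Mlycd, which breaks down malonyl-CoA, the inhibitor of Cpt1a. The mitochondrial cycle was represented by the acyl-CoA dehydrogenases Acadvl, Acadl, Acadm and Acads for very long, long, medium and short chains, the hydratase Echs1, the dehydrogenase Hadh, the 2 subunits of the trifunctional protein Hadha and Hadhb, the thiolase Acaa2, Decr1 and Eci1, which handle double bonds, and the thioesterase Acot2. Etfa, Etfb and Etfdh carry the electrons. The peroxisomal members were the transporters Abcd2 and Abcd3, the bifunctional enzymes Ehhadh and Hsd17b4, the thiolases Acaa1a and Acaa1b, and Decr2 and Eci2, the peroxisomal counterparts of Decr1 and Eci1. Ppara and Ppard are receptors of the pathway, Pdk4 spares glucose by inhibiting pyruvate dehydrogenase, Ucp3 is a mitochondrial carrier and Fabp3 a cytosolic fatty acid binding protein.

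**Figure D1:**
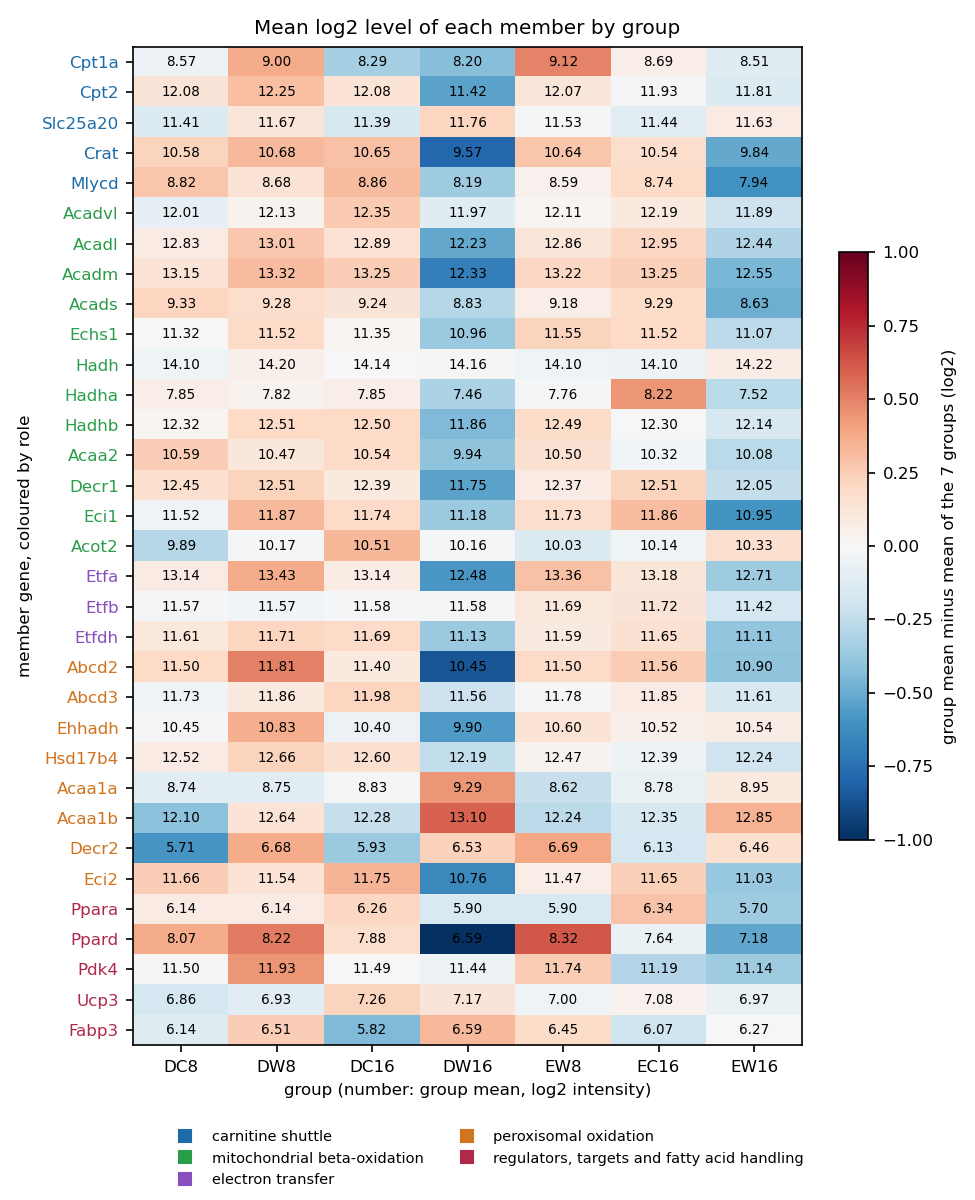
Mean log2 signal of the 33 measured members (rows, by role) in the 7 groups (columns); the number in a cell is the group mean and the colour its deviation from the mean of the 7 group means of that gene, in log2 units. Ppard spans 6.59 to 8.32, the widest range, and Hadh 14.10 to 14.22, the narrowest.

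Between groups the means of Ppard, Abcd2 and Crat spread most, with SDs of the 7 group means of 0.62, 0.47 and 0.45. Those of Hadh and Etfb spread least, with SDs of 0.05 and 0.10.

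Promoter sequences of 28 members (the 250 bases before the RefSeq start, GRCm38.p6) are given for 4 genes whose values are described further on: Hadha, which lies head to head with Hadhb, Cpt1a, and the thiolase pair Acaa1a and Acaa1b. Capitals mark the nuclear receptor site AGGTCA, the GC box GGGCGG and CCAAT, on either strand, and each sequence reads 5' to 3' on the strand of the gene.
Hadha, chr5:30154981-30155230 (-): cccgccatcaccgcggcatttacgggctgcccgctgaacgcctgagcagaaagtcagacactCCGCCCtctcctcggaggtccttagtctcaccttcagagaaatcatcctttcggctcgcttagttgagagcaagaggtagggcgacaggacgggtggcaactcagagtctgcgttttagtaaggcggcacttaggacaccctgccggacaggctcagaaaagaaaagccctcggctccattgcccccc
Cpt1a, chr19:3323051-3323300 (+): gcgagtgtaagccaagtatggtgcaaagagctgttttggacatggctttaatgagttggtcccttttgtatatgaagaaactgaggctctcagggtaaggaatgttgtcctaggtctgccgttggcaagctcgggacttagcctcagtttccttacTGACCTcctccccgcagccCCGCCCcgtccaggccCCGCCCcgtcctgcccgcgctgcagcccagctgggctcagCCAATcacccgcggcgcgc
Acaa1a, chr9:119341044-119341293 (+): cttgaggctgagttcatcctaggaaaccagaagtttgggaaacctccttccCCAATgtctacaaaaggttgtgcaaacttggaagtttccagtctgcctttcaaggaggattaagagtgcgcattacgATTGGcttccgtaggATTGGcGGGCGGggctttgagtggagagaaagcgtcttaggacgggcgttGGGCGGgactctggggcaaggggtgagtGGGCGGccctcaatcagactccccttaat
Acaa1b, chr9:119157094-119157343 (-): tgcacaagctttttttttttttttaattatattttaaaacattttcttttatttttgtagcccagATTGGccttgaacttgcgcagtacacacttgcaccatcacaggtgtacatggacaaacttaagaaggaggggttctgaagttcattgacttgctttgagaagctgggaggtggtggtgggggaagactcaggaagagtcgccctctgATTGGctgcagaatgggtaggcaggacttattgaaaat
AGGTCA was found in 5 of the 28 members (17.9%; Acadm, Acadvl, Cpt1a, Echs1 and Ucp3) and in 13.8% of 26997 other genes. The PPAR element, 2 copies of AGGTCA in a row with 1 base between them, was found in 0 members and 0.037% of other genes, and TCAAGGTCA, the element of the estrogen-related receptors, in 0 members and 0.367%. GGGCGG stood in 16 members (57.1%, against 32.9%), CCAAT in 13 (46.4%, against 34.5%) and TATAAA in none (against 13%). The median GC content of the members' windows was 59.6%, against 52% in other genes, with Acaa1b the lowest at 41.6% and Ppara the highest at 76.4%. Acaa1a held 3 GC boxes and 3 CCAAT motifs and its paralog Acaa1b 0 and 2, and the 2 windows had the same base at 78 of 250 positions. Hadha and Hadhb start 272 bases apart on opposite strands of chromosome 5, and their windows overlap by 228 bases.

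After 8 weeks of Western diet, D mice had more Decr2 mRNA, the peroxisomal reductase for polyunsaturated chains, and it was the 1 member called between DW8 and DC8. The Decr2 signal was 5.49, 5.65 and 6.09 (lowest, median and highest) in DC8 and 7.01, 6.80, 6.94, 6.37 and 6.25 in DW8 mice 1 to 5. Every DW8 mouse was above every DC8 mouse. The probe set was dim, with a mean of 6.32 over all arrays, against 6.83 for the median gene. The DC8 values lay around the median of their arrays, which was 5.51 to 5.57 over all probe sets. The difference was 0.96 (SE 0.144, 95% interval 0.65 to 1.27), a 1.95-fold higher level, with an adjusted p of 0.00301 in limma. Of all 18193 genes, 0.797% were called in this comparison. The Decr2 call was lost without DW8 mouse 2 or DW8 mouse 3 (adjusted p up to 0.0112). Etfa was the other member whose groups did not overlap, with 13.35 to 13.56 in DW8 and 12.80 to 13.31 in DC8 (difference 0.29, adjusted p = 0.0634), and 2 of 33 members stood wholly above DC8, against 1.53% of genes.

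At an adjusted p under 0.05, 2 members passed, against 4.75% of genes, the other being Cpt1a. Cpt1a measured 8.32, 8.53 and 8.82 in DC8 (lowest, median, highest) and 9.03, 9.17, 9.08, 8.71 and 9.00 in DW8 (difference 0.43, SE 0.102, adjusted p = 0.0289 in limma). Only DW8 mouse 4 lay within the DC8 range. Below this level came Slc25a20 (difference 0.26, adjusted p = 0.0709), Acaa1b (0.55, 0.0831), Eci1 (0.35, 0.0993), Ehhadh (0.37, 0.106) and Pdk4 (0.43, 0.124). At an unadjusted p under 0.05 there were 12 of 33 members, against 20.9% of genes in either direction. All 12 had a higher DW8 mean, while of 18193 genes 1350 were higher and 2445 lower at that threshold. Over the list, 26 of 33 members had a higher mean in DW8, against 38.9% of genes, and the median difference was 0.15, against -0.04 over all genes. The medians by role were 0.23 for the peroxisomal members, 0.17 for the shuttle, 0.14 for the mitochondrial cycle and 0.11 for electron transfer.

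Abcd2, a transporter of very long chain acyl-CoA into peroxisomes that is most abundant in fat, was read by 4 probe sets that did not give the same call. On the brightest, its DW8 level was 0.31 higher (adjusted p = 0.104). On the second brightest, Abcd2 measured 9.86, 10.34 and 11.41 in DC8 and 12.41, 12.08, 12.18, 11.42 and 11.30 in DW8, which differ by 1.42 (SE 0.247, adjusted p = 0.00674 in limma). DC8 mouse 1, at 11.41, overlapped the 2 lowest DW8 mice. The other 2 probe sets of Abcd2 gave 0.19 (adjusted p = 0.499) and, on the dimmest, 1.12 (adjusted p = 0.0193). On the second brightest the E mice stood at 11.30, 11.95 and 12.04 in EW8 (lowest, median, highest), close to DW8, and at 9.59, 10.40 and 11.10 in EW16.

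Of 34 other enzymes of fatty acid oxidation and of 22 other regulators 0 were called between DW8 and DC8, with medians of -0.03 and -0.02. For 20 targets of the PPARs the median was 0.04. The list mean of 6 brown fat markers was 5.96 to 6.92 in the DC8 mice and 6.49 to 7.38 in the DW8 mice. In both groups 5 of the 6 were above the array median. Ucp1, the uncoupling protein of brown fat, differed by 1.94 (adjusted p = 0.0583 in limma). Cidea, Cox8b and Elovl3 also had higher means in DW8, Zic1 was nearly level (3.40, against 3.35) and Dio2 was lower (6.46, against 6.64). None of the 6 was called, and their part in the Decr2 and Cpt1a values was not tested.

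**Figure D2:**
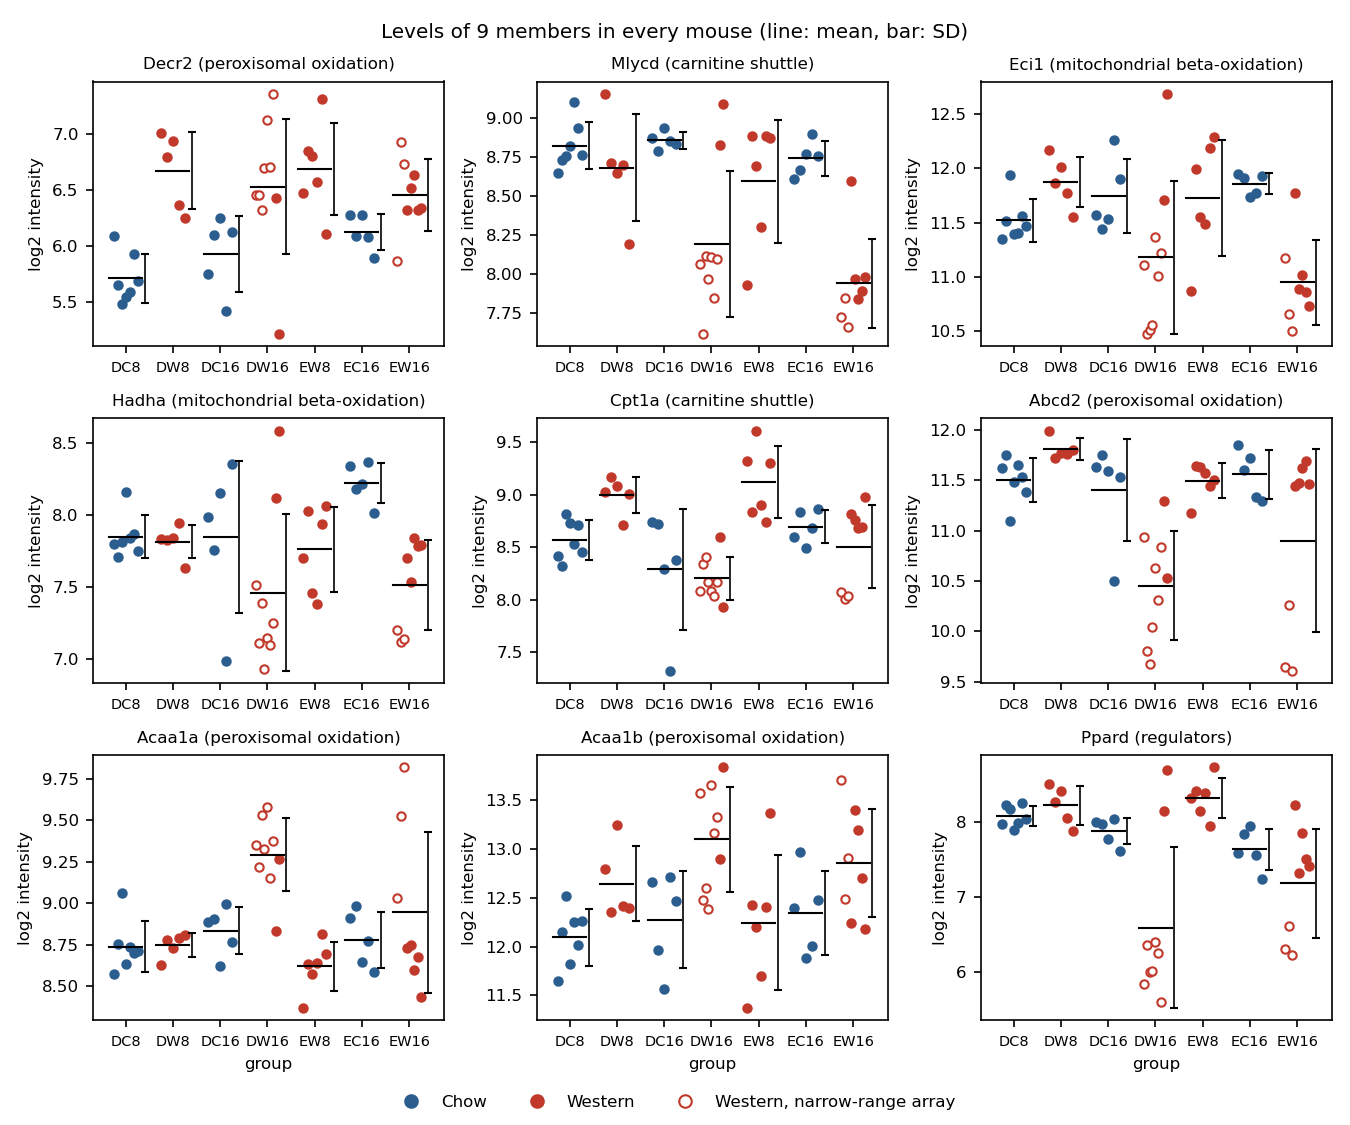
Log2 signal of 9 members in every mouse, by group (blue, chow; red, Western diet; open circles, narrow-range arrays), with the group mean as a line and the SD as a bar. Decr2 lies at 6.25 to 7.01 in DW8 and at 5.49 to 6.09 in DC8, and Mlycd and Hadha lie lower in every EW16 mouse than in any EC16 mouse.

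In E mice after 16 weeks of Western diet, 3 members fell: Mlycd, the enzyme that removes malonyl-CoA, Eci1, the isomerase for unsaturated chains, and Hadha, the alpha subunit of the trifunctional protein. They were 3 of 33 members, against 3.75% of genes called in either direction and 3.52% called lower. Mlycd measured 8.61, 8.67, 8.77, 8.90 and 8.76 in EC16 and 7.66, 7.87 and 8.60 in EW16 (lowest, median, highest). No EW16 mouse reached the EC16 range, although EW16 mouse 4, at 8.60, lay just under it. The difference was -0.80 (SE 0.133, adjusted p = 0.00407 in limma), a 1.74-fold lower level.

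Eci1 measured 11.95, 11.91, 11.74, 11.77 and 11.93 in EC16 and 10.50, 10.87 and 11.78 in EW16 (difference -0.91, SE 0.171, adjusted p = 0.00675, 1.88-fold lower). EW16 mouse 4 alone overlapped EC16. Hadha measured 8.34, 8.18, 8.21, 8.37 and 8.02 in EC16 and 7.12, 7.62 and 7.84 in EW16 (difference -0.71, SE 0.145, adjusted p = 0.00962, 1.63-fold lower), with no overlap. The EC16 mean of Hadha, 8.22, was itself above those of the other 6 groups, which were 7.46 to 7.85. The 2 members below EC16 without overlap, Mlycd and Hadha, compare with 5.03% of genes. Hadhb, the beta subunit, whose start lies beside that of Hadha, had a mean of 12.14 in EW16 and 12.30 in EC16 and was not called.

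The same 3 members were called where the 3 narrow-range EW16 arrays were left out, against 9.27% of genes, a share near that of the members. With 5 mice in each group Hadha differed by -0.49 (SE 0.0896, adjusted p = 0.00483), Mlycd by -0.68 (SE 0.134, adjusted p = 0.00618) and Eci1 by -0.81 (SE 0.168, adjusted p = 0.00782). After a further quantile normalization 2 of the 3 were called, against 3.68% of genes, Mlycd at -0.59 and Hadha at -0.54, while Eci1 was -0.65 (adjusted p = 0.0176). The calls stood close to the threshold: Mlycd was lost without any 1 EC16 mouse (adjusted p up to 0.0164), Eci1 without any 1 EC16 mouse or EW16 mouse 2, 5, 6, 7 or 8 (up to 0.0228), and Hadha without any 1 mouse except EW16 mouse 4 (up to 0.0323).

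At an adjusted p under 0.05, 5 members passed between EW16 and EC16, against 12% of genes, with Acads, the short-chain dehydrogenase (-0.67, SE 0.146, adjusted p = 0.0132), and Ppara (-0.65, adjusted p = 0.0295) beside the 3. An unadjusted p under 0.05 was found for 11 of 33, against 30.9% of genes. Over the list 8 of 33 members had a higher mean in EW16, against 51.7% of genes, with a median of -0.31 against 0.01. The median was -0.04 after the further quantile normalization, with 15 of 33 higher, and -0.04 without the narrow-range arrays, so the shift of the list did not hold apart from those arrays. Acaa1b (0.51) and Acaa1a (0.17) had higher means in EW16 as deposited. For Acaa1a the narrow-range EW16 arrays averaged 9.46 and the others 8.64, against 8.78 in EC16. On its second probe set the mean was 8.11 in EW16 and 8.29 in EC16. Of the 34 other enzymes 5 were called, all lower, among them Oxct1 (-1.17), which uses ketone bodies, Pecr (-0.95), Amacr (-0.92) and Hsd17b10 (-0.88), and 0 other regulators and PPAR targets. Markers of mesothelium moved with these values: Upk3b, Krt19 and Wt1, 3 of the 5 measured, were called lower in EW16 and the list mean was 6.13 to 7.44 in EW16 and 7.45 to 8.47 in EC16. The ovary list mean was 6.09 in EC16 (5.34 to 6.98 in single mice), above the 5.40 to 5.62 of the other groups. Inha was 6.75 in EC16 and 4.82 in EW16 and Hsd3b1 6.98 and 5.62, while Cyp11a1 and Amh were lower in EC16. The adipocyte list mean was 12.90 in EC16 and 12.49 in EW16. The part of these cells in the 3 calls was not tested.

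In D mice at 16 weeks no member was called between DW16 and DC16, against 3.95% of genes. An unadjusted p under 0.05 in limma was found for 17 of 33 members and for 42.7% of genes in either direction. Of the members 4 were higher and 13 lower in DW16. Of 18193 genes 2790 were higher and 4987 lower, so lower values prevailed in both. The looser threshold of 0.05 was passed by 8, against 25.3% of genes. Among the 8 the peroxisomal thiolases had higher means in DW16: Acaa1a measured 8.88, 8.90, 8.62, 8.99 and 8.77 in DC16 and 8.83, 9.33 and 9.58 in DW16 (difference 0.46, SE 0.114, adjusted p = 0.0156), and Acaa1b differed by 0.82 (adjusted p = 0.0387). For Acaa1a, DW16 mouse 8 was the only DW16 mouse inside the DC16 range. The 2 genes are close paralogs and some probe sets of the array carry both symbols, so their signals may not be fully separate.

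The other 6 had lower means on their brightest probe sets: Eci2 (-0.98, SE 0.247, adjusted p = 0.0162), Abcd2 (-0.95, SE 0.268, adjusted p = 0.0242), Mlycd (-0.67, adjusted p = 0.0293), Acadm (-0.93, adjusted p = 0.0306), Crat (-1.08, adjusted p = 0.0475) and Ppard (-1.28, SE 0.437, adjusted p = 0.0479). For all of these except Abcd2 the narrow-range arrays and the 2 others lay apart. Eci2 was 11.83, 11.89, 11.57, 11.77 and 11.68 in DC16, 10.03 to 11.02 on the 7 narrow-range DW16 arrays, and 11.60 and 11.67 in DW16 mice 8 and 9. Ppard was 7.99, 7.96, 7.77, 8.04 and 7.62 in DC16, 5.60 to 6.40 on the narrow-range arrays, and 8.14 and 8.69 in mice 8 and 9. Mice 8 and 9 were within the DC16 range for Eci2 and above it for Ppard, while the 7 others were below it for both genes. Mlycd was 7.61 to 8.12 on the narrow-range arrays, 8.83 and 9.09 on the 2 others and 8.79 to 8.94 in DC16. Acadm was 11.45 to 12.61, then 13.02 and 13.44, against 13.05 to 13.43 in DC16. Crat was 8.79 to 9.62, then 10.62 and 11.41, against 10.25 to 10.90 in DC16. Abcd2 was not split this way: it was 9.68 to 10.94 on the narrow-range arrays, and mouse 9, at 10.53, lay among them, while mouse 8 was at 11.30.

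As deposited, 6 of 33 members had a higher mean in DW16, against 48.7% of genes, and the median was -0.41, against -0.01. After the further quantile normalization 14 of 33 were higher, against 53.2% of genes, and the median was -0.12. On those values 3 members were called, all higher, against 3.58% of genes in either direction and 1.68% higher: Slc25a20 (0.79, adjusted p = 0.0012), Hadh (0.41, adjusted p = 0.0069) and Acaa1b (1.22, adjusted p = 0.00334). With DW16 mice 8 and 9 alone, whose arrays have the usual range, the median was 0.16 and 24 of 33 members were higher, with 0 members and 0 genes called in limma. Acaa1a and Acaa1b were higher as deposited and after the further normalization. Fabp3 was the 1 member of 33 wholly above DC16, against 1.36% of genes, and by a gap too small to show at 2 decimals, with 5.67 to 5.99 in DC16 and 5.99 to 7.73 in DW16 (difference 0.77, adjusted p = 0.0502).

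Probe sets of the same gene did not always follow each other between DW16 and DC16. On its dimmest probe set, with a mean signal of 5.98 over all arrays, Abcd2 was called higher (1.01, SE 0.158, adjusted p = 0.00348), opposite in sign to the brightest, and the 2 others gave 0.31 (0.73 and called after the further normalization, adjusted p = 0.00769) and 0.07. A second probe set of Ppard gave 0.15, and the 3 of Hadh gave 0.02, 0.39 and -0.69. The values of Abcd2, Ppard and Hadh given for DW16 and DC16 are thus those of 1 probe set each and not a direction of the gene. Of the fixed lists, 4 other regulators were called lower (Tfam, -1.34, Nrip1, -1.17, Prkab1, -0.98, and Rxra, -0.94), 1 other enzyme (Acad9, -0.90) and 0 PPAR targets. Of 6 brown fat markers Cox8b was called higher (1.08), Ucp1 (0.80) and Zic1 (0.04) had higher means and Dio2 (-0.56), Elovl3 (-0.47) and Cidea (-0.21) lower ones, and the list mean was 6.96 in DW16 and 6.85 in DC16. Acta1, Lyz2, Pecam1 and Lrrn4, of muscle, macrophages, endothelium and mesothelium, were called lower. Other markers of 2 of these lists went the other way: Ckm, Mb, Myh1, Myh4 and Tnnt3 of muscle and Csf1r of macrophages had higher means in DW16. The muscle list mean was 6.20 in DW16 and 6.43 in DC16, and the macrophage mean 8.96 and 9.46. The endothelial mean was 7.44 to 9.19 in the DW16 mice and 8.71 to 9.21 in the DC16 mice. The part of these cell types in the members' values was not tested.

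**Figure D3:**
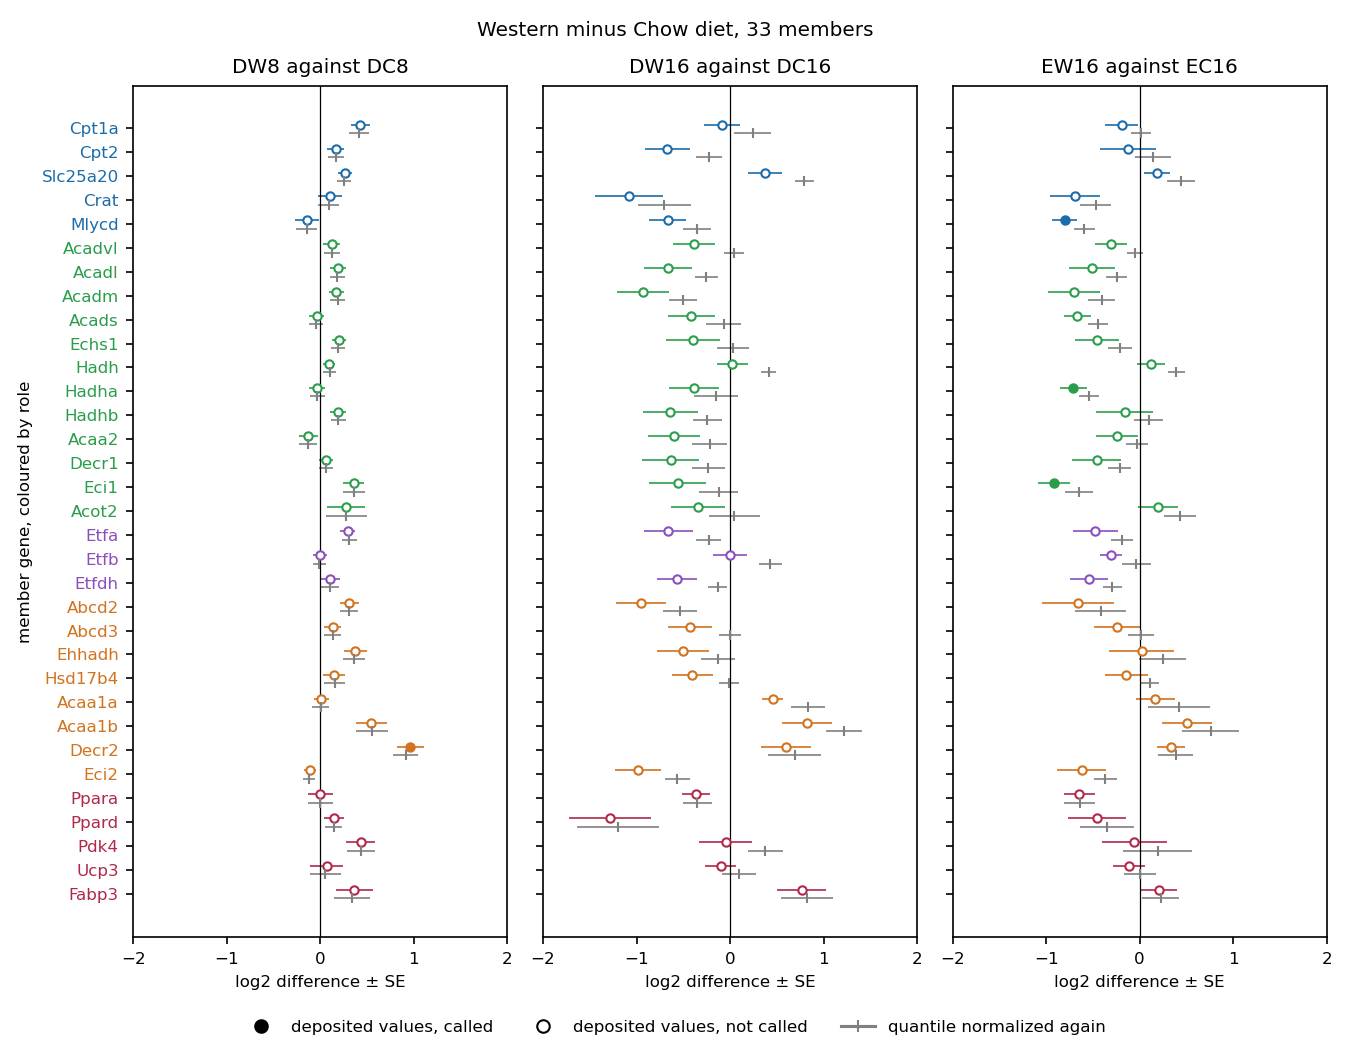
Log2 difference of each member (Western minus chow, bars are SE) in D mice at 8 weeks, D mice at 16 weeks and E mice at 16 weeks; filled circles were called at adjusted p under 0.01, and grey ticks with bars are the values and SE after a further quantile normalization. Decr2 is called in the first panel, no member in the second, and Mlycd, Eci1 and Hadha in the third, where the grey values lie closer to 0 for most members.

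The diet effect was not shown to differ between genotypes. In the interaction of diet and genotype at 16 weeks 0 members were called in limma, against 0% of genes, with 0 members at an unadjusted p under 0.05 (5.83% of genes), and the 3 smallest p-values were those of Fabp3 (0.56, adjusted p = 0.804), Ppard (-0.83, adjusted p = 0.821) and Acot2 (-0.54, adjusted p = 0.823). Mlycd was lower by 0.67 in D mice and by 0.80 in E mice, values that do not share control mice. The value in D mice rests on the narrow-range arrays, where Mlycd was at most 8.12. On the other DW16 arrays it was 8.83 and 9.09, against 8.79 to 8.94 in DC16.

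In the interaction of diet and time in D mice 0 members were called, against 0.0055% of genes, and 15 of 33 had an unadjusted p under 0.05 in limma, against 31.7% of genes. At an adjusted p under 0.05 there were 2, against 7.55% of genes: Abcd2 (-1.26, SE 0.313, adjusted p = 0.0275) and Acadm (-1.10, SE 0.318, adjusted p = 0.0419), followed by Acaa1a (0.45, adjusted p = 0.0539). The DW16 values in this comparison are mostly from narrow-range arrays.

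The D mice after 8 weeks of Western diet (DW8) and after 16 weeks (DW16) were different mice of different ages. Cpt1a and Abcd2 signal was lower and that of Acaa1a higher in DW16 than in DW8. These were 3 of 33 members called between DW16 and DW8 as deposited (9.09%), against 6.67% of genes, a share near that of the members. None of the 3 overlapped between the groups as deposited, with 1 member of 33 wholly above DW8, against 1.78% of genes, and 2 wholly below, against 3.51%. An unadjusted p under 0.05 was found for 17 of 33, against 44.8% of genes. Cpt1a was 7.93, 8.17 and 8.60 in DW16 (lowest, median, highest), under the 8.71 to 9.17 of DW8 (difference -0.79, SE 0.112, adjusted p = 0.00206 in limma, 1.73-fold lower). The 2 highest DW16 values of Cpt1a did not come from 1 kind of array, since mouse 8 was at 8.60 and mouse 3, on a narrow-range array, at 8.40, and mouse 9 was the lowest at 7.93.

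Abcd2 was 12.00, 11.72, 11.77, 11.76 and 11.81 in DW8 and 9.68, 10.53 and 11.30 in DW16 (difference -1.36, SE 0.227, adjusted p = 0.00322, 2.56-fold lower). Mice 8 and 9, at 11.30 and 10.53, were also under DW8. Acaa1a was 8.63, 8.78, 8.73, 8.79 and 8.81 in DW8 and 8.83, 9.33 and 9.58 in DW16 (difference 0.54, SE 0.107, adjusted p = 0.00554, 1.46-fold higher). Its lowest DW16 mouse, mouse 8, was barely above the highest DW8 mouse.

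After the further quantile normalization 7 members were called, against 7.17% of genes. Abcd2 (-0.92) and Acaa1a (0.93) were among them, and Cpt1a was at -0.44 (adjusted p = 0.045). On these values the groups overlapped for Cpt1a (up to 8.90 in DW16, from 8.60 in DW8) and Acaa1a (from 8.75 in DW16, up to 8.78 in DW8). With only mice 8 and 9 left in DW16 no member was called, and the differences were -0.73 for Cpt1a (SE 0.188, adjusted p = 0.207), -0.90 for Abcd2 (SE 0.188, adjusted p = 0.146) and 0.30 for Acaa1a (SE 0.129, adjusted p = 0.364). Abcd2 was lost without DW8 mouse 1, 2 or 3 (adjusted p up to 0.0126), and Acaa1a without any 1 DW8 mouse or DW16 mouse 3, 4 or 7 (adjusted p up to 0.0192).

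On other probe sets, Abcd2 was called lower on the second brightest (-1.04, adjusted p = 0.00458, and -0.58, adjusted p = 0.0322, after the further normalization) and was at -0.30 and -0.08 on the other 2, while those of Cpt1a gave -0.28 and -0.29 and that of Acaa1a 0.39 (adjusted p = 0.114). Ucp3 was called higher on its second probe set (0.78, SE 0.154, adjusted p = 0.00573) and was at 0.23 on the brighter one. The threshold of 0.05 was passed by 11 members, against 27.2% of genes, of which 10 were lower, Ehhadh (-0.93, adjusted p = 0.017) and Etfa (-0.95, adjusted p = 0.0188) with the smallest p after the 3. Over the list 6 of 33 members were higher in DW16, against 52.9% of genes, with a median of -0.49 against 0.03, and -0.12 after the further normalization. Called markers were all lower in DW16 and included the adipocyte genes Lipe (-1.42), the hormone-sensitive lipase, and Cidec (-1.36), a lipid droplet protein. The adipocyte list mean was 12.39 in DW16 and 13.14 in DW8. Other markers had higher means in DW16, among them Retn of adipocytes (13.83, against 13.78) and Csf1r of macrophages (11.68, against 11.45). Cox8b (8.84, against 8.17) and Elovl3 (7.17, against 6.69) of brown fat were higher too. The part of these cell types in the members' values was not tested. Of the fixed lists, 2 other enzymes (Slc22a5, -1.27, and Aldh3a2, -0.83) and 3 other regulators (Nrip1, -1.33, Prkaa1, -1.22, and Sirt1, -0.77) were called, all lower.

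In E mice no member was called between EW16 and EW8, against 1.84% of genes. An unadjusted p under 0.05 in limma was found for 10 of 33, against 32.8% of genes in either direction, a share near that of the members. All 10 members were lower, while of 18193 genes 3181 were lower and 2794 higher at that threshold. At an adjusted p under 0.05 there were 4, against 11.4% of genes: Ppard (-1.14, SE 0.287, adjusted p = 0.0253), Mlycd (-0.65, adjusted p = 0.0297), Acads (-0.55, adjusted p = 0.0355) and Eci1 (-0.78, adjusted p = 0.0441). Over the list 5 of 33 were higher in EW16, against 55.3% of genes, and the median was -0.32 (-0.15 after the further quantile normalization) against 0.04. Abcd2 was at -0.60 on its brightest probe set (adjusted p = 0.25) and was called lower on the second brightest (-1.44, SE 0.219, adjusted p = 0.00585, and -1.16, adjusted p = 0.0117, after the further normalization), where the lowest EW8 mouse, at 11.30, was above the highest EW16 mouse, at 11.10. On that probe set both genotypes were thus lower at 16 than at 8 weeks of Western diet.

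On chow, D mice showed no called member between DC16 and DC8, against 0% of genes, with 4 of 33 at an unadjusted p under 0.05 in limma, against 9.71% of genes. Acadvl was at 11.62, 12.07 and 12.14 in DC8 and 12.18, 12.22, 12.40, 12.51 and 12.45 in DC16 (difference 0.34, SE 0.0992, adjusted p = 0.311). It was the 1 member wholly above DC8, against 0.44% of genes. Ucp3 (0.40, adjusted p = 0.321) and Fabp3 (-0.32, adjusted p = 0.452) came next.

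No member was called between D and E mice on the same diet and time. Between DW8 and EW8 0 members were called, against 0% of genes, with 1 of 33 at an unadjusted p under 0.05 in limma, against 4.5%. That member was Abcd2, at 11.72 to 12.00 in DW8 and 11.18, 11.54 and 11.65 in EW8 (lowest, median, highest; difference 0.31, SE 0.0926, adjusted p = 0.985), the 1 member wholly above EW8, against 0.225% of genes. Next were Hsd17b4 (0.19) and Acaa1a (0.13), and 26 of 33 members had a higher mean in DW8, against 52% of genes, with a median of 0.10 against 0.01. On the second brightest probe set of Abcd2 the groups overlapped, with 11.30 to 12.41 in DW8 and 11.30 to 12.04 in EW8. Its dimmest probe set had a mean of 6.61 in both groups, and the remaining one 10.58 in DW8 and 10.16 in EW8. Between DC16 and EC16 0 were called, against 0% of genes, with 2 at an unadjusted p under 0.05 (6.98% of genes), and the members with the smallest p were Acaa2 (0.22, adjusted p = 0.774), Hsd17b4 (0.21, adjusted p = 0.79) and Fabp3 (-0.24, adjusted p = 0.79). Between DW16 and EW16 0 were called, against 0% of genes, with 0 at an unadjusted p under 0.05 (16.3% of genes), and Cpt1a (-0.30, adjusted p = 0.346), Ehhadh (-0.64, adjusted p = 0.355) and Acaa1a (0.35, adjusted p = 0.356) had the smallest.

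The members also varied together among mice of the same group. Over the 35 arrays outside the narrow-range ones, with each group set to its own mean, the 528 pairs of members had a median Pearson r of 0.29, and 86.7% of pairs were above 0, against a median of -0.00092 between a member and the 18160 other genes. These points share arrays, RNA quality and the mix of cells, so the values are a description. The closest pairs were Acadm and Etfa (r = 0.82), Echs1 and Decr1 (0.81), Slc25a20 and Acaa1b (0.79), Slc25a20 and Crat (0.78) and Etfa and Etfdh (0.76). Acadl had the highest median r with the other members, 0.54. Acot2 (-0.06) and Cpt1a (0.02) had the lowest, and the pair of Cpt1a and Acadvl was the most opposed at -0.57, followed by Acot2 and Etfa at -0.55. The head-to-head pair Hadha and Hadhb had r = 0.50 and the paralogs Acaa1a and Acaa1b 0.58.

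**Figure D4:**
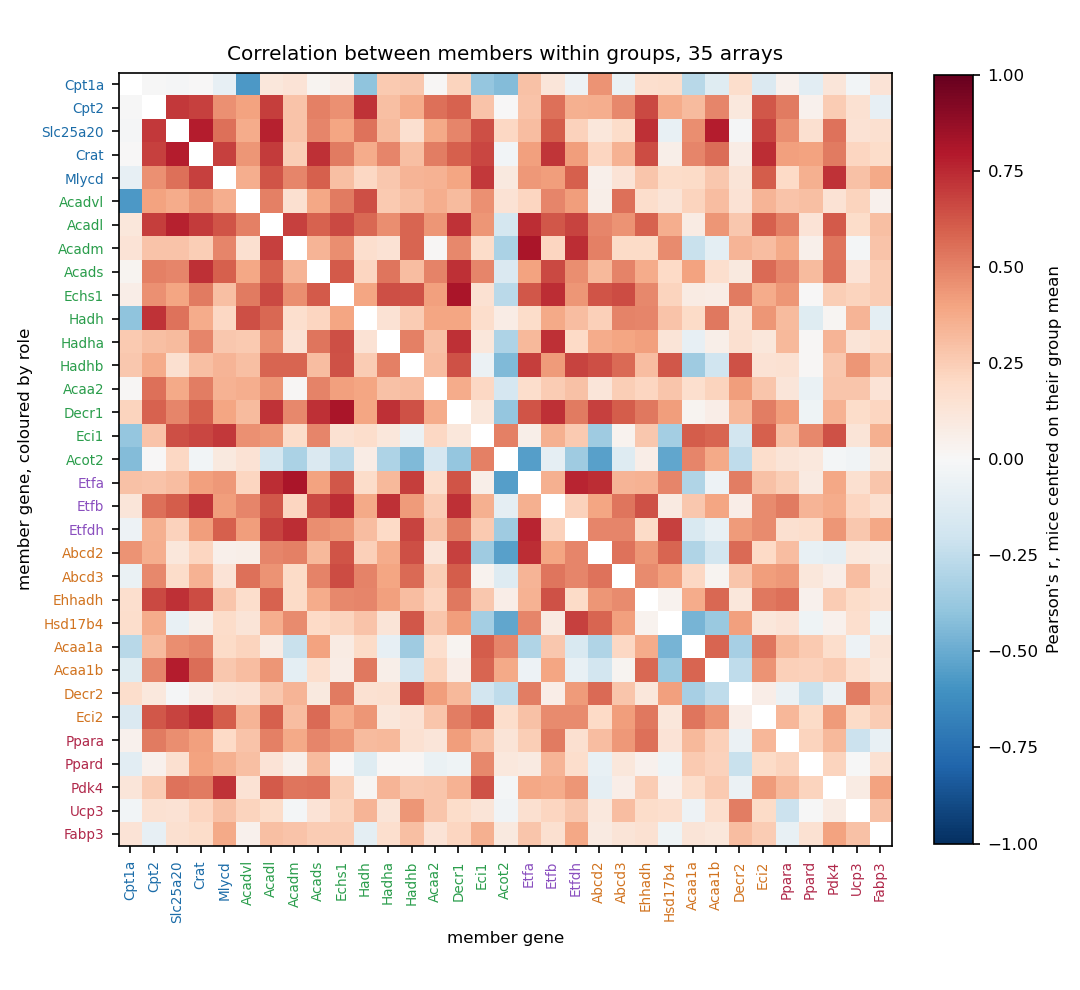
Pearson r between every pair of the 33 members over 35 arrays, after subtracting the mean of each group, with members in order of role on both axes. Most pairs are above 0, with Acadm and Etfa at 0.82, and the rows of Acot2 and Cpt1a stand out by their low values.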

How the data were processed

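The authors hybridized adipocyte RNA to Affymetrix MG430-2.0 arrays (45 mice, all female), scanned them with global scaling and read them with RMA express. The deposited values are log2 signals, 1 per probe set and array. The paper mentions quantile normalization between conditions, but the deposited distributions still differ between arrays; the version of the program, and if every array was normalized jointly, is not given in the sources used here. No column was left out. Each array is a separate mouse by the labels.

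Groups follow the labels. limma 3.58.1 (R 4.3.3; lmFit, then eBayes) was run on the groups of each comparison, without a filter, with Benjamini-Hochberg adjustment over 45037 probe sets and a threshold of 0.01, and checked on simulated data. A single symbol was found for 34945 probe sets, several for 932 and no symbol for 9160. The probe set brightest on average stands for a gene. The members and lists were chosen with earlier results of these data known. All 33 measured members are named, with full statistics for those called, at most 6 in a comparison, and otherwise the 3 with the smallest p. At most 4 genes of each other list are named. Alternatives were a further quantile normalization, median centring, 1 spread over all groups, a replicate block, a filter at the median level, the mean of probe sets, and leaving out arrays. The number of arrays limits the precision.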

Additional observations from a re-analysis of the deposited data

Results flagged for a closer look

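In 22 of 231 pairs of a member and a group, 1 mouse stood apart from the rest of its group by Dixon's criterion, which flags about 1 in 20 groups by chance. DC8 mouse 3 accounted for 6 of them, low for Acadvl (11.62), Acadl (12.53) and Etfa (12.80) and high for Eci1 (11.94), Acaa1a (9.06) and Fabp3 (6.68). DC16 mouse 4 accounted for 5, all low: Acads (8.72), Decr1 (11.66), Etfa (12.73), Etfb (11.02) and Abcd2 (10.50). DW8 mouse 1 was high for Slc25a20 (11.92), Acadl (13.26) and Acads (9.54), and EW16 mouse 4 was high for Mlycd (8.60) and Fabp3 (7.28). The other mice stood apart for 1 member each. EC16 mouse 5 was low for Cpt2 (11.78), DC8 mouse 4 high for Hadha (8.16) and EW8 mouse 1 low for Etfa (13.06). DW16 mouse 9 was low for Decr2 (5.21), and DW16 mouse 2 and EW16 mouse 2, both on narrow-range arrays, were low for Ucp3 (6.26 and 6.35).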

How the results depend on the processing

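The number of members called at an adjusted p under 0.01 moved with the processing, and the number of all genes called, given in brackets, moved too. At an adjusted p under 0.05 the members numbered 2 in DW8 against DC8 [864], 8 in DW16 against DC16 [4595], 5 in EW16 against EC16 [2176], 11 in DW16 against DW8 [4955], 4 in EW16 against EW8 [2071] and 2 in the time interaction in D mice [1373], where 1 [145], 0 [718], 3 [683], 3 [1214], 0 [335] and 0 [1] are reported at 0.01. After a further quantile normalization it was 3 in DW16 against DC16 [652] and 7 in DW16 against DW8 [1304], where Hadh turned from -0.04 to 0.34 (adjusted p = 0.00986). With 1 spread over all 7 groups it was 0 in DW8 against DC8 [18], 6 in DW16 against DC16 [3819], 10 in DW16 against DW8 [3453] and 3 in EW16 against EW8 [1872]. With only probe sets above the median level it was 1 in DW16 against DC16 [1357] and 5 in DW16 against DW8 [1828], and without the narrow-range arrays 0 in DW16 against DW8 [0]. In the genotype interaction, the comparisons of D with E mice and that of DC16 with DC8, the count was 0 under every alternative run.

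The replicate numbers share only a number: deviations of same-numbered mice correlated between -0.44 and 0.53. With the number as a replicate block, on the mice that share one, the count was 0 in DW8 against DC8 [3], 14 in DW16 against DC16 [4018], 0 in EW16 against EC16 [0], 18 in DW16 against DW8 [4120] and 12 in the time interaction [2679]. The same mice without the block, a setting added after seeing the data, gave 0 [7], 14 [4484], 0 [0], 19 [5145] and 14 [3036]. The paired DW16 mice were all on narrow-range arrays.

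Leaving out 1 mouse in turn gave 0 to 1 in DW8 against DC8 [36 to 408], 0 to 6 in DW16 against DC16 [26 to 3034], 0 to 4 in EW16 against EC16 [28 to 1670], 1 to 11 in DW16 against DW8 [103 to 3608], 0 to 4 in EW16 against EW8 [0 to 1538] and 0 to 5 in the time interaction [0 to 1538]. The highest counts were 6 [2691] and 11 [2839] without DW16 mouse 9, 4 [1670] and 4 [1538] without EW16 mouse 4, and 5 [1538] without DW16 mouse 8. The cause was not tested. The levels say nothing of protein, flux or fatty acid use, the narrow-range arrays lie in 2 groups only, and paralogs may share probes.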
